A study of Homo sapiens with 12 samples.

Results

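Transcripts of the 7 transcription factor genes SNAI1, SNAI2, ZEB1, ZEB2, TWIST1, TWIST2 and PRRX1 are described here in HMEC-1 cells, a human endothelial line from skin microvessels that was immortalised. The genes were matched by symbol among the 36433 symbols of the deposited table, and the TPM (an abundance per transcript length within a constant total per library) of all transcripts of a symbol were summed. Cells had been transfected, with Lipofectamine RNAiMAX, with 50 nM of a mimic of miR-126, of miR-143 or of miR-150, or with a non-targeting scrambled RNA as the control, and were collected after 48 h. Each of the 4 groups had 3 libraries, numbered 2 to 4 in the labels. All groups share the line, the medium and the transfection, and a single immortalised line stands for endothelium here. Whether the libraries of a group stem from different cultures is not in the labels, and the p-values therefore reflect library-to-library spread that could be technical.

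These factors bind DNA and switch cells from a state held together by junctions to a migratory, mesenchymal one, in embryos, in wound repair and, in endothelium, in the endothelial-to-mesenchymal transition. The Snail proteins (SNAI1, SNAI2) and the ZEB proteins (ZEB1, ZEB2) are zinc finger repressors that bind E-boxes in the promoters of junction genes such as CDH1, the gene of E-cadherin. TWIST1 and TWIST2 are basic helix-loop-helix factors that pair with E proteins such as TCF3, and PRRX1 is a homeobox factor of mesenchyme.

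A mimic supplies a mature microRNA, which pairs through its seed, bases 2 to 8, with sites in the 3' UTR of its targets. The mature sequences below, from RefSeq (GRCh38.p14), are shown because their seeds define the sites searched in the factors, with the seed in capitals. The labels do not give the arm of a mimic, and the 3p arms are a reading.
miR-126-3p: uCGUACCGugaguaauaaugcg
miR-143-3p: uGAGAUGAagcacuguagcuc
None of the 7 genes held the miR-126-3p site CGGTACG or the miR-143-3p site TCATCTC in the longest 3' UTR of its protein-coding transcripts (GENCODE release 29, GRCh38). Of 12429 tested genes with a 3' UTR, 0.298% held the miR-126-3p site and 14.4% the miR-143-3p site.
A match to bases 2 to 7 alone, CATCTC, occurred once in PRRX1 and once in ZEB1, as it did at least once in 38.9% of the 12429 genes. The match in ZEB1 is followed by an A, the base that extends such a match to a longer class of site, and that in PRRX1 is not. The stretches that hold them are shown 5′ to 3′ with the match in capitals, in PRRX1 at chr1:170737075-170737098 and in ZEB1 at chr10:31529156-31529179, both on the plus strand and both within the 3' UTR.
PRRX1: aaaaggcatgcccaCATCTCtttc
ZEB1: ttttaccagactccCATCTCacaa
With the 5p arms, an alternative chosen after seeing the data, the miR-126-5p site TAATAAT was in 4 of the 7 genes (PRRX1 and ZEB2 with 3 matches each, ZEB1 and SNAI2 with 1 each) and in 19.9% of the 12429 genes. These counts are of the longest 3' UTR, which has 1203 to 5370 bases in those 4 genes and 706 to 830 in the rest. The transcripts it belongs to hold 1.10% of the gene's TPM for ZEB2, 0.164% for ZEB1 and 0% for SNAI2, against 41.3% for PRRX1. The miR-143-5p site ACTGCAC was in 0 of the 7 genes and in 18.2% of the 12429. Such matches describe letters only and are not evidence of binding. miR-150 is named only.

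In the control libraries, ZEB1 was the most abundant of the 7 at 43.2 TPM ± 7.71 (SD, n = 3), followed by ZEB2 at 25.8 TPM ± 1.88, SNAI1 at 16.2 TPM ± 1.78, TWIST2 at 11.6 TPM ± 2.67, PRRX1 at 6.34 TPM ± 1.39, SNAI2 at 5.36 TPM ± 2.82 and TWIST1 at 2.41 TPM ± 0.804. From ZEB1 down to PRRX1, the control libraries of neighbours in this order did not overlap, whereas SNAI2 overlapped with both PRRX1 and TWIST1. All 7 genes passed the filter of at least 1 TPM in at least 3 libraries that 13750 genes passed. PRRX1 reached 1 TPM in 8 libraries, the 3 controls among them, SNAI2 and TWIST1 in 11, and the other 4 genes in all 12.

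Markers matched the labelled cell type: all 12 endothelial markers, such as PECAM1, CDH5 and VWF, passed the filter and summed to between 1446 TPM and 2878 TPM in every library. Of the 12 fibroblast and pericyte markers, 8 passed, with sums of 59.0 to 151 TPM in the control, 61.0 to 85.7 TPM with the miR-126 mimic, 47.7 to 70.3 TPM with miR-143 and 46.1 to 61.0 TPM with miR-150. Their part in the results below was not tested. In bulk RNA, fewer cells of a type and less RNA per cell cannot be told apart. In 2 libraries, replicate 4 of miR-143 and replicate 4 of miR-150, long transcripts were low: the deviation of genes from their mean over all libraries had a Spearman correlation with transcript length of -0.40 and -0.55 over 13649 genes, against -0.0084 to 0.29 in the other 10. ZEB1 and ZEB2 are long, at the 84.5th and 87.4th percentile of transcript length, and their results are given with and without these libraries.

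**Figure D1:**
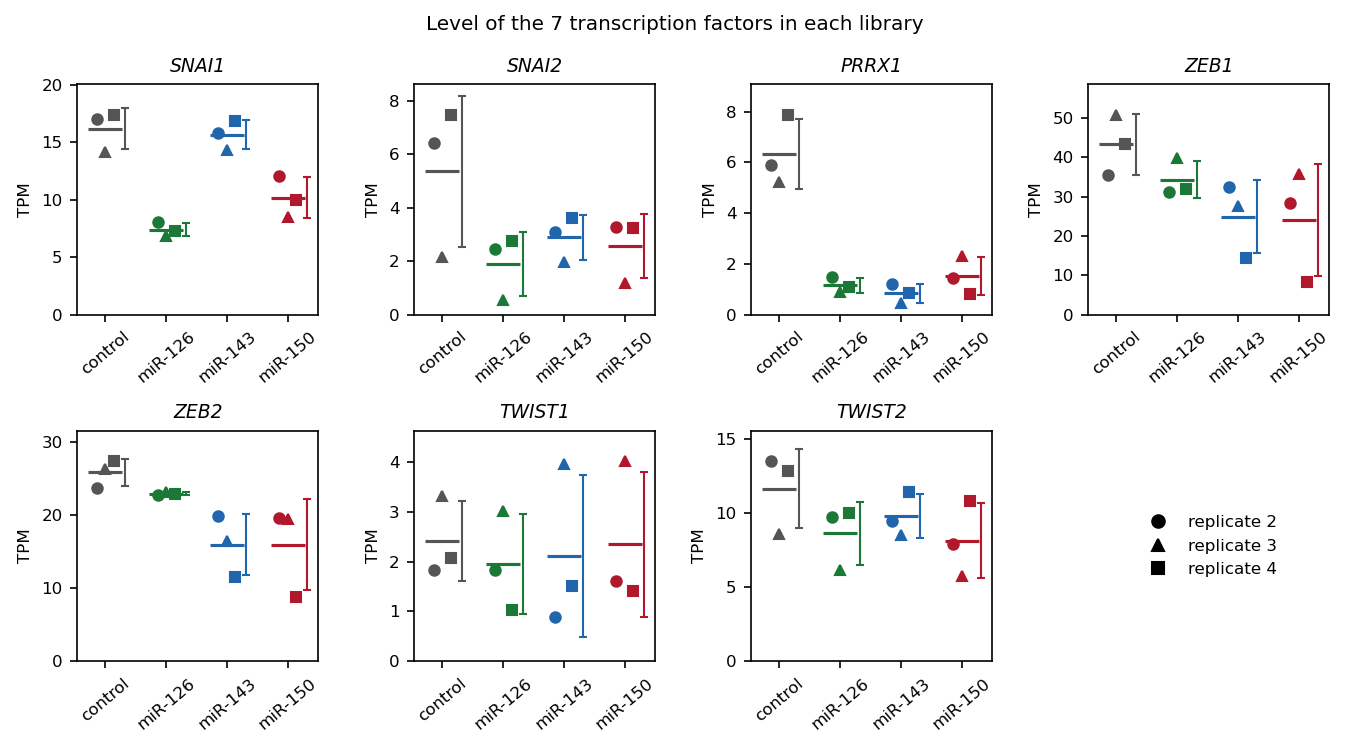
TPM (linear axes from 0) of the 7 factors in each of the 12 libraries, by group; points are libraries, shaped by replicate number, horizontal bars are group means and vertical bars ± 1 SD over 3 libraries. PRRX1 lies between 5.22 and 7.89 TPM in the control and at or below 2.31 TPM in every mimic library, and SNAI1 is lowest with the miR-126 mimic.

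PRRX1 was lower with each of the 3 mimics. It stood at 5.91, 5.22 and 7.89 TPM in control libraries 2, 3 and 4, at 1.49, 0.901 and 1.10 TPM with miR-126, at 1.22, 0.440 and 0.848 TPM with miR-143 and at 1.43, 2.31 and 0.807 TPM with miR-150. Every mimic library was below every control library, and the mimic groups overlapped with each other. The group means were 18.3%, 13.2% and 23.9% of the control mean for miR-126, miR-143 and miR-150. On the log2(TPM + 1) scale, which understates the change of low genes, PRRX1 fell by 1.76 with miR-126 (SE 0.263, limma adjusted p = 0.00385), by 2.01 with miR-143 (adjusted p = 0.00255) and by 1.57 with miR-150 (adjusted p = 0.00806). The 3 comparisons share the same control libraries. The miR-150 call was lost without control replicate 4 (limma adjusted p = 0.0549) and in a fit of the 2 groups alone (adjusted p = 0.0913), while the calls for miR-126 and miR-143 held whichever of their 6 libraries was left out (highest adjusted p 0.0271 and 0.0211).

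Between mimics, PRRX1 differences did not pass the test. The log2 difference was 0.25 for miR-126 against miR-143 (95% interval -0.33 to 0.83, limma adjusted p = 0.672), -0.18 for miR-126 against miR-150 (-0.76 to 0.39, adjusted p = 0.693) and -0.43 for miR-143 against miR-150 (-1.01 to 0.14, adjusted p = 0.533). These intervals leave room for differences in either direction and do not show that the mimics act alike on PRRX1.

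SNAI1 separated the mimics. It stood at 17.0, 14.1 and 17.4 TPM in control libraries 2, 3 and 4, at 8.02, 6.86 and 7.31 TPM with miR-126, at 15.8, 14.3 and 16.9 TPM with miR-143 and at 12.1, 8.51 and 9.94 TPM with miR-150. The miR-126 libraries were below all others, the miR-150 libraries lay between them and the control, and the miR-143 libraries overlapped with the control. Of all genes, 6.17% and 4.08% had every miR-126 library below every miR-143 and every miR-150 library, and 10.3% every miR-143 library above every miR-150 library. With miR-126 the mean was 45.7% of the control, and SNAI1 fell by 1.03 on the log2 scale (SE 0.163, limma adjusted p = 0.00505), a call that held whichever of the 6 libraries was left out (highest adjusted p 0.0378). With miR-150 the mean was 62.9% of the control and the log2 difference of -0.63 did not pass (limma adjusted p = 0.0625). With miR-143 the mean was 96.7% of the control, and the log2 difference of -0.04 (95% interval -0.40 to 0.31, limma adjusted p = 0.929) turned to 0.01 when libraries were centred on their median gene or quantile normalized.

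The difference of SNAI1 between miR-126 and miR-143 was itself past the threshold, at -0.99 on the log2 scale (SE 0.163, limma adjusted p = 0.0105), though not without miR-126 replicate 4 (adjusted p = 0.0578) or without miR-143 replicate 4 (adjusted p = 0.0544). Of all genes, 1.05% were called lower in this comparison, and SNAI1 was the only one of the 7 factors called. Against miR-150, SNAI1 was 0.40 lower with miR-126 (limma adjusted p = 0.184) and 0.59 higher with miR-143 (adjusted p = 0.103). No factor was called by limma in either comparison (SNAI1 alone had an unadjusted p under 0.05 in each), where 3.91% and 2.19% of all genes were called in either direction. Same-numbered libraries deviate together in both, and SNAI1 passed in both once the number was a block in the fit (limma adjusted p = 0.0400 and 0.0138), the only factor to do so, where 3.06% of all genes were called lower and 7.06% higher.

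SNAI2, the other Snail repressor, was measured less evenly. It stood at 6.43, 2.16 and 7.49 TPM in control libraries 2, 3 and 4, at 2.45, 0.538 and 2.74 TPM with miR-126, at 3.08, 1.97 and 3.62 TPM with miR-143 and at 3.26, 1.18 and 3.24 TPM with miR-150. Replicate 3 was the lowest in all 4 groups, so each mimic group overlapped with the control although each library was below the control library of its own number. The log2 differences from the control were -1.11 (miR-126, limma adjusted p = 0.195), -0.61 (miR-143, adjusted p = 0.551) and -0.78 (miR-150, adjusted p = 0.409). For miR-126, where same-numbered libraries deviate together, the fit with the replicate number as a block gave limma adjusted p = 0.00362, with ratios to the same-numbered control of 0.381, 0.249 and 0.366. The block gave limma adjusted p = 0.0238 for miR-150 and 0.0564 for miR-143, where same-numbered libraries deviated together less evenly.

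**Figure D2:**
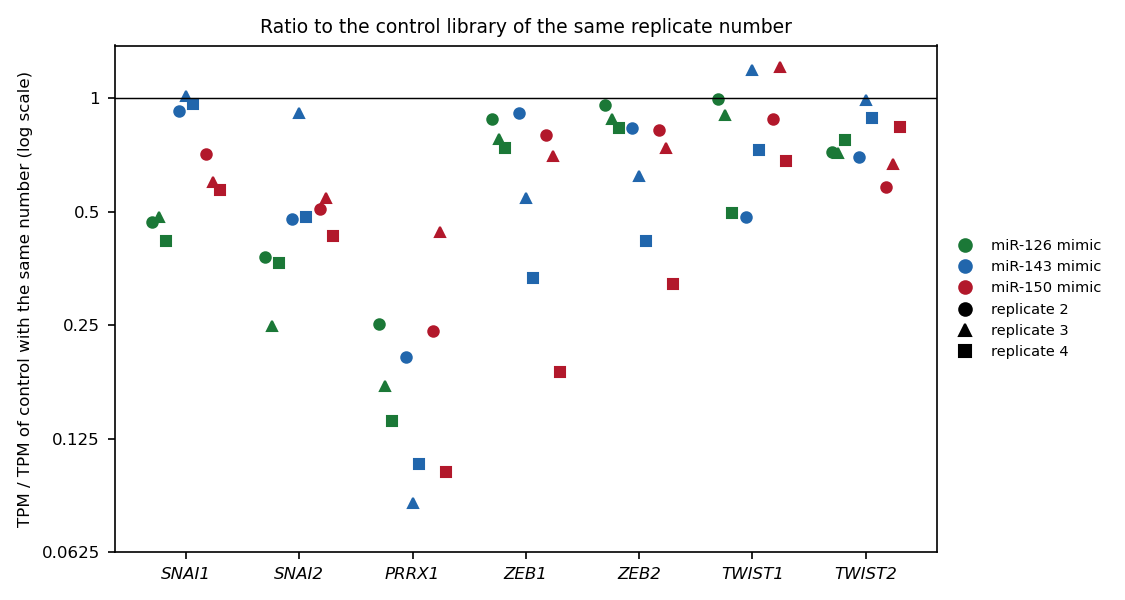
TPM of each factor in a mimic library divided by TPM in the control library of the same replicate number (log axis), coloured by mimic and shaped by number; the line marks 1. SNAI1 with miR-126 lies between 0.420 and 0.485, SNAI2 with miR-126 between 0.249 and 0.381, and the lowest ZEB1 and ZEB2 ratios are those of replicate 4 with miR-150, at 0.188 and 0.322.

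ZEB1 and ZEB2 were lower on average with every mimic, but none of these differences passed the test. ZEB1 stood at 35.4, 50.8 and 43.4 TPM in control libraries 2, 3 and 4, at 31.2, 39.7 and 31.99 TPM with miR-126, at 32.5, 27.6 and 14.5 TPM with miR-143 and at 28.3, 35.8 and 8.16 TPM with miR-150. The lowest values were those of miR-143 replicate 4 and miR-150 replicate 4, the libraries in which long transcripts were low. Among the mimics, the miR-143 libraries alone were all below the control for ZEB1. The log2 differences were -0.32 (miR-126, limma adjusted p = 0.775), -0.83 (miR-143, adjusted p = 0.384) and -1.03 (miR-150, adjusted p = 0.259). Without the 2 libraries they were -0.50 for miR-143 (limma adjusted p = 0.154) and -0.41 for miR-150 (adjusted p = 0.259).

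ZEB2 stood at 23.7, 26.3 and 27.4 TPM in control libraries 2, 3 and 4, at 22.7, 23.2 and 22.8 TPM with miR-126, at 19.9, 16.4 and 11.5 TPM with miR-143 and at 19.6, 19.4 and 8.82 TPM with miR-150. Each mimic's libraries were below all control libraries, and those of miR-143 and miR-150 were also below all of miR-126, as were those of 19.2% and 21.8% of all genes. The log2 differences were -0.16 (miR-126, limma adjusted p = 0.823), -0.69 (miR-143, adjusted p = 0.219) and -0.74 (miR-150, adjusted p = 0.182). Without the 2 libraries, ZEB2 passed for miR-143 at -0.49 (limma adjusted p = 0.0459) and did not for miR-150 at -0.38 (adjusted p = 0.114). With the trend on transcript length removed from each library, an alternative chosen after seeing the data, ZEB2 passed for miR-143 (-0.54, limma adjusted p = 0.0112) and for miR-150 (-0.48, adjusted p = 0.0227). ZEB2 did not pass for miR-126 (limma adjusted p = 0.204), nor ZEB1 for miR-126, miR-143 or miR-150 (adjusted p = 0.434, 0.161 and 0.122). Of 13649 genes, 823, 496 and 480 were called lower with this setting. ZEB2 with miR-126 was 0.53 above miR-143 (limma adjusted p = 0.370) and 0.58 above miR-150 (adjusted p = 0.244).

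The TWIST genes did not pass in any comparison. TWIST2 stood at 13.5, 8.57 and 12.8 TPM in control libraries 2, 3 and 4, at 9.70, 6.16 and 9.97 TPM with miR-126, at 9.45, 8.50 and 11.4 TPM with miR-143 and at 7.87, 5.73 and 10.8 TPM with miR-150. All groups overlapped, with replicate 3 the lowest in each, and the log2 differences from the control were -0.40, -0.21 and -0.48 (limma adjusted p = 0.449, 0.736 and 0.370). TWIST1 stood at 1.83, 3.33 and 2.07 TPM in the control, at 1.83, 3.02 and 1.03 TPM with miR-126, at 0.889, 3.97 and 1.51 TPM with miR-143 and at 1.62, 4.03 and 1.41 TPM with miR-150. Here replicate 3 was the highest in all 4 groups, the reverse of TWIST2 and SNAI2. The log2 differences of TWIST1 were -0.24, -0.22 and -0.08 (limma adjusted p = 0.828, 0.832 and 0.943), and that for miR-150 turned to 0.05 on centring and 0.07 on quantile normalization. What the numbers mark is not given in the labels.

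Counted together, 2 of the 7 factors were called lower with miR-126 (SNAI1 and PRRX1), where 1.73% of all 13750 genes were called lower. With miR-143 it was 1 of 7 (PRRX1), against 1.48% of all genes, and with miR-150 1 of 7 (PRRX1), against 2.23%. No factor was called higher with any mimic by limma, and none had an unadjusted p under 0.05 in that direction. For miR-126 the block raised the count to 3, with SNAI2, where 5.11% of all genes were called lower. All 3 mimic libraries were below all 3 controls for 3 factors with miR-126 (SNAI1, ZEB2 and PRRX1) against 11.1% of all genes, for 3 with miR-143 (ZEB1, ZEB2 and PRRX1) against 13.9%, and for 3 with miR-150 (SNAI1, ZEB2 and PRRX1) against 14.6%. The median log2 difference of the 7 factors was -0.40, -0.61 and -0.74 for miR-126, miR-143 and miR-150, and that of all tested genes was 0.10, -0.04 and -0.11. Centring libraries on their median gene moved the all-gene median for miR-126 from 0.10 to -0.04 and the calls from 464 higher and 238 lower to 354 higher and 547 lower. The same step moved the calls for miR-150 from 149 higher and 307 lower to 245 and 337.

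**Figure D3:**
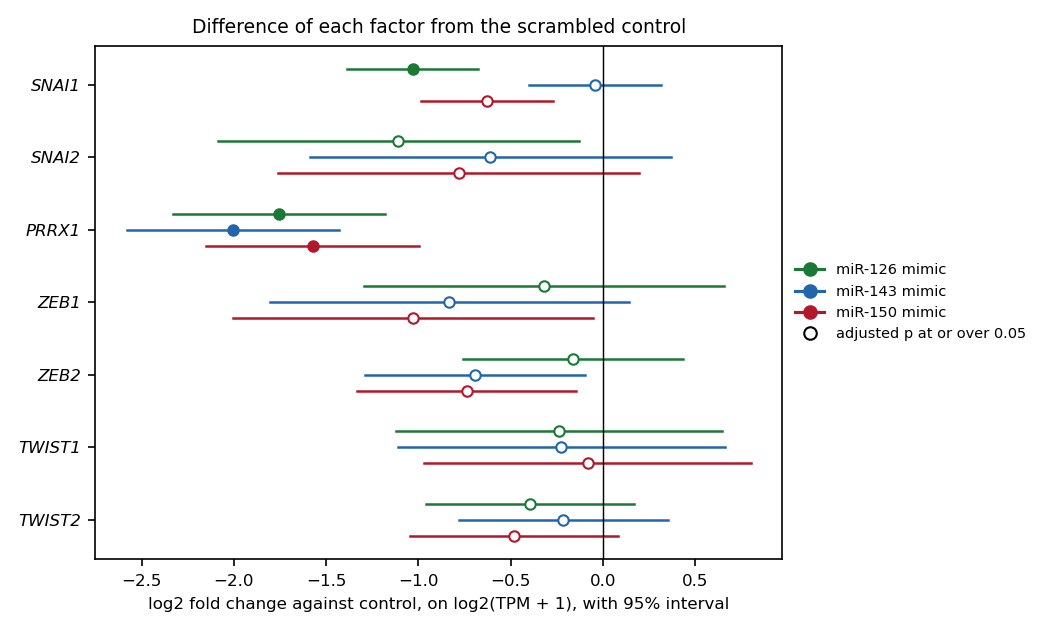
Log2 fold change of each factor against the control on the log2(TPM + 1) scale, with 95% intervals from limma over 12 libraries; filled points have an adjusted p under 0.05. The 4 filled points are SNAI1 with miR-126 and PRRX1 with each mimic, and the point estimates of all 7 factors lie below 0 for every mimic. Of all tested genes, 36.3%, 55.5% and 63.2% lie below 0 with miR-126, miR-143 and miR-150.

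Transcripts were tested singly, 58391 of them. SNAI1 has 1 transcript in the table, which was called lower with miR-126 (limma adjusted p = 0.0396) where 0.269% of transcripts were called lower. No transcript of the 7 factors was called with miR-143 or miR-150 by limma (4 and 3 had an unadjusted p under 0.05, all lower), where 0.12% and 0.247% of transcripts were called lower. Leaving out libraries ended that call in 9 of 12 fits. The main PRRX1 transcript was PRRX1-201, which encodes the 245-residue protein and made up 41.3% of the gene's TPM. It stood at 2.86, 1.76 and 3.11 TPM in control libraries 2, 3 and 4, and at 0.453, 0.559 and 0.590 TPM with miR-126, 0.391, 0.330 and 0.381 TPM with miR-143 and 0.651, 0.748 and 0.359 TPM with miR-150. It reached 1 TPM in 3 libraries, all of them controls, and so entered the test only through the group where it is high. That all mimic libraries were below all controls is therefore a description, which the filter favours (limma adjusted p = 0.0712, 0.0559 and 0.104). PRRX1-202, with 217 residues, made up 4.999%, and 2 annotated non-coding transcripts held 24.5% and 14.5%. ZEB1-201 made up 44.4% of ZEB1 and ZEB2-204 made up 28.2% of ZEB2. How reads were divided among such overlapping transcripts is an estimate, and the strand of counting is not given in the sources used here.

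**Figure D4:**
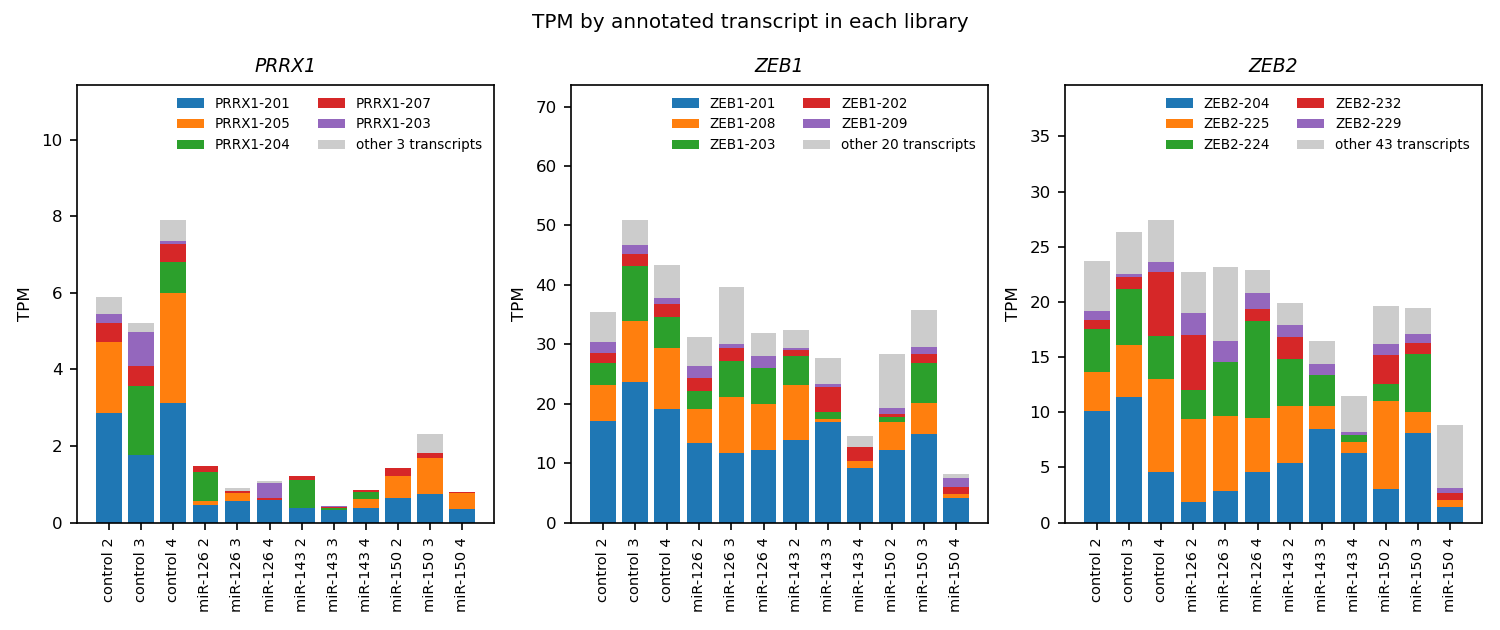
Stacked TPM by annotated transcript (linear axes from 0) of PRRX1, ZEB1 and ZEB2 in each library, with the 5 most abundant transcripts in colour and the others in grey. PRRX1-201, the lowest segment of the PRRX1 bars, is between 1.76 and 3.11 TPM in the control and at or below 0.748 TPM in the mimic libraries.

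Over the 12 libraries, ZEB1 and ZEB2 levels had a Pearson correlation of 0.965 and SNAI2 and TWIST2 of 0.907 on the log2 scale. These are descriptions, since the libraries share groups, replicate numbers and, for the ZEB genes, the low values of long transcripts. The genes most like PRRX1 among all tested were ADCY1 (r = 0.975), SDC2 (0.949) and FNDC4 (0.942). Those most like SNAI1 were ENDOD1 (0.950), COLGALT1 (0.941) and TKT (0.938), and those most like SNAI2 were NT5DC2 (0.978), HOXD8 (0.949) and MMP2 (0.944). ZEB1 was followed most closely by THRAP3 (0.986), KPNA1 (0.983) and KPNA3 (0.981), and ZEB2 by RBBP5 (0.993), C2CD2 (0.985) and UBFD1 (0.985). TWIST1 was most like SPEF2 (0.957), AC004696.1 (0.945) and GBX2 (0.936), and TWIST2 most like GAS2L1 (0.948), SERPINB6 (0.943) and TSPAN3 (0.936).

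Genes of the mesenchymal state were called lower more often than higher. Of 23 tested genes of this list, 4 fell and 1 rose with miR-126, 3 fell with miR-143 and 6 fell with miR-150, where 1.73%, 1.48% and 2.23% of all genes were called lower, with medians of -0.54, -0.46 and -0.74. For miR-126 the block gave 12 lower and 3 higher, against 5.11% and 11.8% of all genes. Without the 2 libraries low in long transcripts, 7, 4 and 4 genes were lower, against 4.54%, 2.27% and 2.22% of all genes. For miR-126 against the control these libraries are in neither group. Its log2 differences therefore stayed the same, and only the spread estimated over all groups changed, here and below. MMP14, a membrane-bound matrix protease, fell by 2.00 with miR-126, by 0.98 with miR-143 and by 1.99 with miR-150 (limma adjusted p = 9.95e-05, 0.00848 and 0.000269). TGFBI, a matrix protein induced by TGF-beta, fell by 0.998, 0.56 and 1.03 (limma adjusted p = 0.000269, 0.0103 and 0.000325). For miR-143, the MMP14 and TGFBI calls were lost without control replicate 4 (limma adjusted p = 0.0518 and 0.0551). With miR-126, FN1, the matrix protein fibronectin, fell by 0.55 and CCN1, named after its value was seen, rose by 0.36, and with miR-143 THBS1 fell by 1.58 (limma adjusted p = 0.0471, 0.0275 and 0.0286), calls that leaving out libraries ended in 5, 6 and 4 of 6 fits. With miR-150, FN1 fell by 0.67 (limma adjusted p = 0.0263), a call lost in 3 of 6 such fits and without the 2 libraries.

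The cadherins and vimentin are described singly, and the state of the line was not tested. CDH1 was at or below 0.230 TPM in every library and was not tested. CDH2, N-cadherin, averaged 39.0 TPM in the control and 13.7, 25.8 and 13.9 TPM with miR-126, miR-143 and miR-150. It fell by 1.58 with miR-150 (limma adjusted p = 0.0488), a call that ended in 5 of 6 fits without a library, and differed by -1.45 with miR-126 (adjusted p = 0.0536; 0.00281 with the block). VIM, the intermediate filament vimentin, fell by 0.54 with miR-126 (limma adjusted p = 0.0120), though not without miR-126 replicate 2 or replicate 4 (highest adjusted p 0.0673). CDH5, VE-cadherin, averaged 396 TPM in the control and did not pass for any mimic (log2 differences -0.19, -0.45 and -0.60, limma adjusted p = 0.743, 0.397 and 0.226).

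Few junction genes known as targets of these repressors passed the test. Of 14 tested, 2 rose with miR-126, 1 with miR-143 and 0 with miR-150 by limma (2 higher and 1 lower at an unadjusted p under 0.05), and none fell. Without the 2 libraries, 4, 0 and 0 rose, against 8.81%, 2.87% and 2.05% of all genes. With miR-126, JUP, the desmosome protein plakoglobin, rose by 1.08 (limma adjusted p = 0.00841; 0.0503 without miR-126 replicate 2) and the tight junction gene CLDN7 by 1.14 (adjusted p = 0.0127; lost in 4 of 6 fits without a library, up to 0.0705). With miR-143, the polarity gene LLGL2 rose by 0.82 (limma adjusted p = 0.0360), a call lost in 6 of 6 such fits. Of all genes, 3.37%, 1.84% and 1.08% were called higher with miR-126, miR-143 and miR-150. With the block, 5 of the 14 rose with miR-126, against 11.8% of all genes. Of the 9 epithelial markers, 4 passed the filter, with sums of 449 to 635 TPM in the control, 526 to 580 TPM with miR-126, 732 to 952 TPM with miR-143 and 903 to 1027 TPM with miR-150. These sums are mostly KRT18, which rose by 0.67 with miR-143 and 0.90 with miR-150 (limma adjusted p = 0.0250 and 0.00522), the first lost in 4 of 6 fits without a library (up to 0.130). Their part in the results was not tested.

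The E-box bound by Snail and ZEB proteins, CAGGTG or its reverse complement CACCTG, was searched on both strands in promoters from RefSeq (GRCh38.p14), 250 bases before to 50 after a gene's start. It was in 7 of 12 junction genes with a promoter entry (of 23 listed), in 1 of 4 factors and in 20.6% of all 27305 promoters. The junction genes were listed as known targets of these repressors, so their share is a description and no test. CLDN3, CRB3 and DSP, among the 7, were below 1 TPM in every library. JUP and CLDN7 held none in this window. Of the factors, ZEB1 held a match 57 bases before its start, at chr10:31318348-31318377. CRB3, a polarity gene at or below 0.311 TPM in all libraries, held 5 matches, the nearest at chr19:6464199-6464228. Both stretches are on the plus strand and are shown with the E-box in capitals, since they hold the motif that Snail and ZEB proteins bind.
ZEB1: ccgaggtgacagCAGGTGagggccgggtgc
CRB3: agtgcgctctccCAGGTGagtgactaaact

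**Figure D5:**
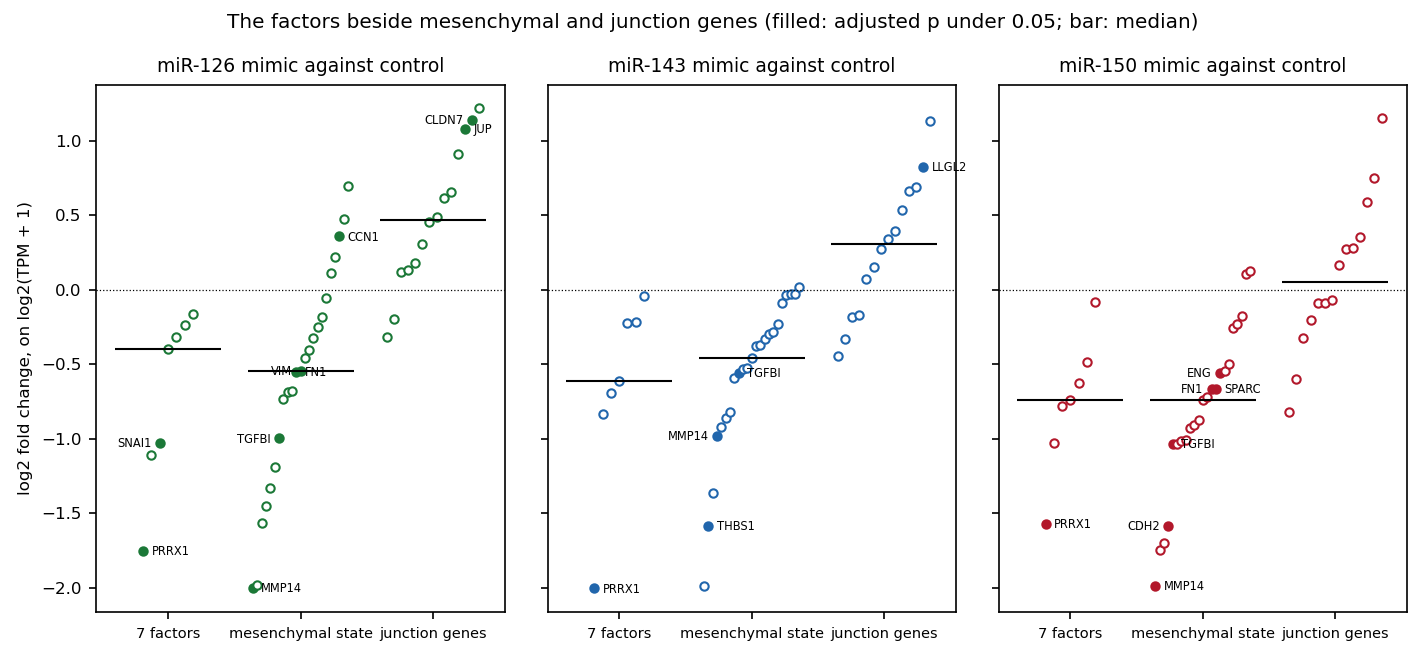
Log2 fold change against the control, on the log2(TPM + 1) scale, of the 7 factors, the 23 tested mesenchymal state genes and the 14 tested junction genes, in a panel per mimic; points are genes in order of value, filled where the adjusted p is under 0.05, and bars are medians. Medians of the mesenchymal genes are -0.54, -0.46 and -0.74, and those of the junction genes 0.47, 0.31 and 0.05.

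Some other genes of the pathway passed. Of all genes, 1.73%, 1.48% and 2.23% were called lower and 3.37%, 1.84% and 1.08% higher with miR-126, miR-143 and miR-150. Among 22 tested partners and corepressors, AJUBA, a LIM protein that binds Snail, rose by 0.97 with miR-126 (limma adjusted p = 0.0359) and TCF3, a partner of TWIST, fell by 0.61 with miR-150 (adjusted p = 0.0440), and none passed with miR-143 (3 had an unadjusted p under 0.05). With the block, 2 of the 22 rose and 1 fell with miR-126. Among 19 tested inducing ligands, receptors and transducers, the receptor TGFBR1 fell by 1.31 and CTNNB1, beta-catenin, by 0.90 with miR-126 (limma adjusted p = 0.0483 and 0.0312), and none passed with miR-143 or miR-150 (1 and 2 had an unadjusted p under 0.05, all lower). The calls of AJUBA, TCF3, TGFBR1 and CTNNB1 were each lost in 5 or 6 of 6 fits that left out a library. With the block, 4 of the 19 fell and 1 rose with miR-126. All block counts in this paragraph stand against 5.11% of all genes lower and 11.8% higher. Among 10 other factors linked to the transition, HMGA2, a chromatin protein, fell by 1.73 with miR-143 and 1.495 with miR-150 (limma adjusted p = 0.00348 and 0.00676), the second lost without control replicate 4 (0.0509). With miR-126 none of the 10 passed (4 were lower at an unadjusted p under 0.05), and 4 fell with the block. Of 4 tested opposing factors, KLF4 fell by 0.69 with miR-126 (limma adjusted p = 0.0313), lost in 4 of 6 such fits, and with the block 1 of the 4 also rose (GRHL3, limma adjusted p = 0.0215, named after its value was seen). None of 17 genes for the stability of these proteins passed limma with any mimic (2, 3 and 5 had an unadjusted p under 0.05). With miR-126, LATS2, a kinase named after its value was seen, rose with the block (limma adjusted p = 0.00928), and without the 2 libraries 4 of the 17 were called higher, LATS2 among them, and 1 lower, against 8.81% and 4.54% of all genes. Of the lymphatic markers, 4 of 5 passed the filter, and PDPN, podoplanin, fell by 1.01, 1.16 and 0.63 with miR-126, miR-143 and miR-150 (limma adjusted p = 0.000771, 0.000593 and 0.0129), the last lost without control replicate 2 or replicate 4 (highest 0.0737). PDPN was the only one of the 4 called. The 4 did not move as a set: 1, 2 and 3 of them were below 0, with medians of 0.07, -0.20 and -0.45. LYVE1, named after its value was seen, averaged 8.42 TPM in the control and 14.3 TPM with miR-126. Of 6 leukocyte markers, 1 passed the filter and none was called.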

How the data were processed

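RNA sequencing of HMEC-1 cells gave TPM for 187626 transcripts in 12 libraries. The authors made the deposited TPM with kallisto, per the submitters' processing notes, which also name FastQC, sleuth and GRCh38 (hg38); in the sources used here, versions and annotation are not given. TPM keep no read totals: depth is unknown, and only the spread between libraries shows precision. TPM were summed per symbol, genes at 1 TPM or more in 3 or more libraries were kept, and log2(TPM + 1) was fitted by group over all 12 libraries with limma 3.58.1 (mean-variance trend, two-sided) in R 4.3.3, adjusted by Benjamini-Hochberg over 13750 genes per comparison, threshold 0.05. The script was tested on simulated data.

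The 7 genes, 7 pathway lists and 5 marker lists were chosen with earlier results of these data known. All 7 factors were named; from each list, up to 4 called genes with the largest change per mimic, and CDH1, CDH2, CDH5 and VIM; and the 3 genes most correlated with each factor. No factor missed the filter, so the permutation test planned for that case was not needed. Deviations of same-numbered libraries correlated at 0.289 to 0.634 for miR-126 against the control, and at 0.284 or more between mimics, so the block is given there. For miR-143 and miR-150 against the control they ranged from 0.0438 to 0.650 and from 0.0726 to 0.604. Pairing was uneven there, and the block is an alternative only. Alternatives were other pseudocounts, filters and scalings, the block, fewer libraries and a length correction. TGFB1 was not analysed here, and 1 gene of the mesenchymal list is not reported here.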

Additional observations from a re-analysis of the deposited data

How the results depend on the processing

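Pseudocounts of 0.1 and 0.5, no filter and a filter of 5 TPM changed no count of called factors (the last left SNAI2 and TWIST1 untested), and the signs of the 4 called differences from the control held under all alternatives. PRRX1 entered the fit with the 5 TPM filter only through the control libraries (5.22 to 7.89 TPM), as no mimic library exceeded 2.31 TPM. That filter favours its calls, which are a description there. With the replicate block, called factors rose from 1 to 3 for miR-150 against the control, where pairing was uneven. In that fit 1129 of 13750 genes were called lower. Called factors rose from 0 to 1 for miR-126 and for miR-143 against miR-150, where 3.06% of all genes were called lower and 7.06% higher, in that order. For miR-143 against the control, 1 transcript was called with the block, PRRX1-201 (limma adjusted p = 0.0494). The share of all transcripts called in that fit was not counted. Without the 2 libraries low in long transcripts, and with quantile normalization, miR-143 had 2 called factors, where 312 and 363 genes were called lower. With the length trend removed, miR-143 had 2, miR-150 2 and miR-126 against miR-150 1, where 496, 480 and 558 of 13649 genes were called lower. With that and the block together, counts were 4, 4 and 6 for miR-126, miR-143 and miR-150 against the control, where 1923, 1505 and 1408 genes were lower. Counts were 2, 1 and 1 for miR-126 against miR-143, miR-126 against miR-150 and miR-143 against miR-150, where 1604 and 1631 genes were lower and 1400 higher. With only the 2 groups compared, miR-150 had 0. Leaving out libraries gave 0 to 1 for miR-150, 1 to 2 for miR-143 and 0 to 1 for miR-126 against miR-143, and called transcripts of 0 to 1 for miR-126 and for miR-143. Seed matches went from 0 to 4 factors with the miR-126 5p arm and from 0 to 2 with the miR-143 6-mer. TWIST1 turned to 0.11 without the 2 libraries, 0.0455 on centring and 0.0692 on quantile normalization for miR-150, and SNAI1 to 0.00854 on centring and 0.0139 on quantile normalization for miR-143. Leaving out libraries turned TWIST1 (-0.48 to 0.00764 for miR-126, -0.62 to 0.0764 for miR-143, -0.42 to 0.11 for miR-150), SNAI1 for miR-143 (-0.13 to 0.0166) and PRRX1 between miR-126 and miR-150 (-0.40 to 0.0380). The cause was not tested.

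Counts over all genes moved more. Against the control they were 702, 457 and 456 for miR-126, miR-143 and miR-150, and became 2331, 1775 and 1694 with the block, 1512, 1074 and 927 with the length trend removed, 3660, 3270 and 2732 with both, and 1673, 266 and 57 with only 2 groups. Without the 2 libraries they were 1835, 707 and 587, and with quantile normalization 1029, 764 and 673. Leaving out a library gave 214 to 1365, 139 to 974 and 125 to 553, and the shares of all genes beside the factors' counts move with these. Between mimics they were 346, 537 and 301 for miR-126 against miR-143, miR-126 against miR-150 and miR-143 against miR-150, and became 1515, 2599 and 1340 with the block, 844, 955 and 639 with the length trend removed, 2749, 3120 and 2484 with both, and 187, 19 and 4 with only 2 groups; miR-126 against miR-143 gave 578 without the 2 libraries. Leaving out a library gave 77 to 804, 117 to 717 and 127 to 353. Centring moved miR-126 against miR-143 from 201 higher and 145 lower to 156 and 282, and miR-126 against miR-150 from 427 and 110 to 224 and 329.

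The low TPM of PRRX1 with a mimic, of SNAI2 and of TWIST1 rest on an unknown number of reads. With 3 libraries a group, the 95% intervals of SNAI2, ZEB1 and TWIST1 span nearly 2 log2 units.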
